A study of Mus musculus with 13 samples.

Results

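Proteasome subunit genes and the genes of proteasome assembly and activation were examined in isolated glomeruli from mice with THSD7A-associated membranous nephropathy (MN). Members were the genes whose symbol begins with Psm, a class letter from a to g and a number, provided that at least 4 libraries held 1 TPM or more, TPM being a transcript level corrected for transcript length and library total. The pattern matched 56 of the 35967 rows of the expression table. Of these, 50 passed the filter, among 14322 genes that passed it in all. The members comprised 8 alpha subunits, 10 beta subunits including 3 of the immunoproteasome, 9 subunits of the 19S base, 8 of the 19S lid, 5 activator subunits, the inhibitor Psmf1, 7 assembly factors and 2 genes, Psmc3ip and Psme3ip1, that share the naming pattern but encode no proteasome subunit.

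Bulk RNA was sequenced from glomeruli of male wild-type Balb/c mice, a strain in which rabbit antibodies against the podocyte protein THSD7A induce the disease. Control mice (5 libraries) had received preimmune rabbit IgG, and MN mice had received rabbit anti-THSD7A IgG and were examined on day 1 (4 libraries) or day 5 (4 libraries). The dose was 2 mg given intraperitoneally in all groups, the control mice of both days formed one group, and the day of each control mouse was not given in the sources used here. The study's methods give an age of 14 to 15 weeks for mice in its MN experiments. The antibody came from another species, so mice of all groups carried rabbit IgG, and glomeruli were collected after perfusion with magnetic beads, which leaves podocytes, endothelial cells and mesangial cells together with some tubular material.

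The 26S proteasome degrades proteins that carry ubiquitin chains. Its 20S core is a barrel of alpha and beta rings in which 3 beta subunits cut peptide bonds, and its 19S regulatory particle has a base, whose ATPases unfold the substrate, and a lid, which removes the ubiquitin chain. In cells exposed to interferon the catalytic subunits Psmb5, Psmb6 and Psmb7 can be replaced by Psmb8, Psmb9 and Psmb10, which form the immunoproteasome. When proteasome capacity falls short, the transcription factor Nfe2l1 (NRF1) raises subunit genes together through antioxidant response elements (ARE) in their promoters. Podocytes are long-lived cells that rarely divide, and the proteasome is among the routes by which they remove damaged protein.

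Sequence upstream of 4 members is shown because these members recur below. Psmb5 and Psmb6 are constitutive catalytic genes with an ARE match, and Psmb7 had no promoter listed. Psmd12 is the lid gene with a match among 6 lid genes with a listed promoter, and Psmd14 had the highest day 5 value of the lid. Sequences came from RefSeq promoters, whose table is on GRCm38, and were placed on GRCm39 by exact match; bases inside the annotated gene were left off. Capitals mark the ARE (TGACNNNGC on either strand) or, for Psmd14, the CCAAT box (CCAAT on either strand). The stretches lie at chr14:54855482-54855702 on the minus strand, chr11:70415933-70416182 on the plus strand, chr11:107370104-107370245 on the plus strand and chr2:61541788-61542025 on the plus strand (GRCm39), each ending 1 base before the annotated start of its gene.
Psmb5: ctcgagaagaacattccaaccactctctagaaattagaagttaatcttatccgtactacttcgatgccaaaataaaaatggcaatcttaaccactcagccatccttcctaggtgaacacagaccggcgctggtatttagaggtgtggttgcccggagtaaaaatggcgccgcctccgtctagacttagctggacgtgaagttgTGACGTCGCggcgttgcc
Psmb6: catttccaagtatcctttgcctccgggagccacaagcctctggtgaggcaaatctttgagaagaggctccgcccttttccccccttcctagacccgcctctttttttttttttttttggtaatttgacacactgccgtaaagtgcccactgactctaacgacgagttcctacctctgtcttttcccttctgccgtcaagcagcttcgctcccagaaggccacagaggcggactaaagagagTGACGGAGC
Psmd12: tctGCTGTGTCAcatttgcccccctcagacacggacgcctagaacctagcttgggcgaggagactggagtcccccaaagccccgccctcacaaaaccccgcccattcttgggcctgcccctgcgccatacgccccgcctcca
Psmd14: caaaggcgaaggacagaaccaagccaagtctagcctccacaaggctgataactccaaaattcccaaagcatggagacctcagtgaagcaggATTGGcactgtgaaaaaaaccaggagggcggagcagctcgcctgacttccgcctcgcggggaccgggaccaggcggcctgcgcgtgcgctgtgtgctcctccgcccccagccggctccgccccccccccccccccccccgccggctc
In Psmb6 the ARE ended at the base next to the gene, and in Psmb5 it lay 18 to 10 bases upstream. Psmd12 carried it in the opposite orientation, 139 to 131 bases upstream. The CCAAT box of Psmd14 lay on the opposite strand, 147 to 143 bases upstream.

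Over the 300 bases around the start of each gene (250 before and 50 after), promoters outside an excluded chromosome were listed for 42 of the 50 members and for 27025 genes in all. The ARE was found in 6 of 42 members (14.3%), namely Psmb5, Psmb6, Psmc6, Psmd9, Psmd12 and Psme4, beside 14% of all genes. A CCAAT box was found in 15 members (35.7%, beside 41.1%), and 5 of these 15 were alpha subunits. The ETS motif CCGGAAG was found in 16 members (38.1%, beside 9.93%), among them the lid genes Psmd6, Psmd11, Psmd12 and Psmd13 and 3 ATPase genes. None of the beta genes with a listed promoter (2 structural, 2 catalytic and 3 of the immunoproteasome) had it. The motif GAAANNGAA, the core of the interferon-stimulated response element, was found in 7 members (16.7%, beside 9.76%), with the PA28 gene Psme1 among them and no immunoproteasome gene, and Psmb8 was 1 of 3 members (7.14%, beside 9.55%) with the interferon-gamma-activated site TTCNNNGAA. The cyclic AMP element TGACGTCA had 0 matches in members (2.03% of all genes), and the E2F motif TTTCCCGC had 2, in Psmc2 and Psmc4 (4.76%, beside 1.24%). All motifs were searched on both strands, the ARE and the cyclic AMP element can share bases, and a match is a description of these letters only.

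The 13 libraries resembled each other closely, with Spearman correlations between 0.971 and 0.988 over the genes that passed the filter, and no 2 libraries were identical. TPM values summed to between 989774 and 996064 per library, so the depth of sequencing is unknown. Markers of podocytes (10 of 10), glomerular endothelium (8 of 8) and mesangium (8 of 8) were above 0 in every library, and summed podocyte markers ranged from 7369 to 9830 TPM. Tubular markers summed to 400.27 to 1016 TPM in control, 779.6 to 1359 TPM in day 1 MN and 567.6 to 724.7 TPM in day 5 MN, and leukocyte markers to 26.9 to 54.4 TPM over all libraries. Because whole glomeruli were measured, fewer cells of a type and less RNA per cell cannot be told apart.

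In control glomeruli the 31 constitutive 26S subunits among the members were transcribed within a narrow band. Their mean levels ran from 54.6 TPM for the lid gene Psmd12 to 291 TPM for the structural beta gene Psmb3, a 5.32-fold range, with a median of 126 TPM. Within the 20S core the range was 4.55-fold, with Psma2 lowest at 63.9 ± 5.08 TPM (SD, n = 5). Within the 19S particle it was 3.5-fold, with the ATPase gene Psmc3 highest at 191 ± 6.57 TPM. TPM is corrected for transcript length, so levels of different genes can be set side by side.

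Levels of neighbouring genes in this order often did not differ beyond their spread. Psmb3 (291 ± 6.77 TPM), the alpha gene Psma7 (284 ± 18 TPM) and the catalytic gene Psmb6 (270 ± 14.1 TPM) stood together at the top, and the lid genes Psmd12 (54.6 ± 2.95 TPM), Psmd14 (58.1 ± 3.21 TPM) and Psmd11 (64.2 ± 1.02 TPM) at the bottom. The 3 constitutive catalytic genes were apart from each other, since Psmb7 was at 169 ± 11.9 TPM and Psmb5 at 89.9 ± 9.02 TPM. Immunoproteasome genes were at 55.2 ± 7.20 TPM for Psmb8, 26.7 ± 3.44 TPM for Psmb9 and 109 ± 13.8 TPM for Psmb10.

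**Figure D1:**
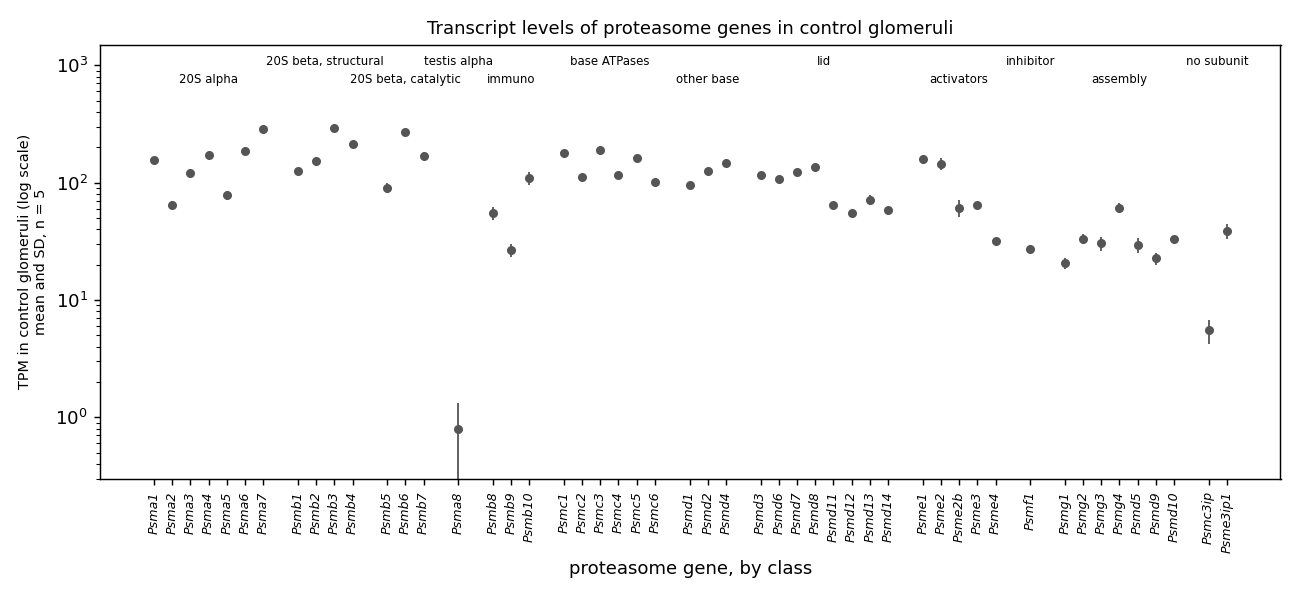
Mean TPM of each proteasome gene in the 5 control libraries, on a log axis, with bars for the SD and genes grouped by class. The 31 constitutive subunits lie between 54.6 and 291 TPM, 6 of the 7 assembly factors lie lower (Psmg4 lies at 61.0 TPM), and Psma8 lies near 1 TPM with an SD bar that runs below the axis.

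Variation among replicates was small. The median coefficient of variation of the 31 constitutive subunits was 4.40% in control, 5.37% in day 1 MN and 4.59% in day 5 MN, beside 7.78%, 7.73% and 6.41% over all tested genes with a mean of at least 50 TPM. Some libraries were low for many subunits. On TPM as deposited, control replicate 5 held the lowest control TPM for 18 of 31 subunits and day 1 MN replicate 3 the lowest day 1 value for 23 of 31. After scaling control replicate 5 was lowest for 3 of 31 and day 1 MN replicate 3 for 25 of 31.

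No member passed an adjusted p of 0.05 in limma on day 1 or day 5. The count was 0 of 50 for day 1 MN against control, where 0.133% of all tested genes passed, 0 of 50 for day 5 MN against control (6.12% of all genes) and 0 of 50 for day 5 against day 1 (2.38%). At an unadjusted p under 0.05 the counts were 0 of 50 on day 1 (12.6% of all genes), 8 of 50 on day 5 (20.1%) and 4 of 50 between the days (15.5%). The 8 members on day 5 were Psmd8, Psmd14, Psmd11 and Psmd13 of the lid, the chaperone Psmd10, the alpha gene Psma1, the ATPase gene Psmc2 and Psmc3ip, and all 8 were on the higher side (11% of all genes). Fold changes were taken on log2(scaled TPM + 0.5), where scaling was by a median-of-ratios factor per library.

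The intervals were narrow. For all 31 constitutive subunits the 95% interval of the log2 fold change lay within 0.5 of 0 on both days, with outer bounds of 0.897-fold and 1.28-fold on day 1 and of 0.887-fold and 1.33-fold on day 5. Over all members the interval lay within 0.5 of 0 for 49 of 50 on day 1, all but Psma8, and for 48 of 50 on day 5, all but Psma8 and Psmc3ip. Over all tested genes the interval did so for 9345 of 14322 on day 1 and for 8779 of 14322 on day 5.

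Most members were slightly above control. On day 5 the log2 fold change was above 0 in 41 of 50 members, beside 49.3% of all genes, and the count was 32 of 50 (beside 41.8%) on TPM as deposited and 36 of 50 (beside 46.9%) after quantile normalization. With replicate number as a block the day 5 count was 34 of 50 (beside 50.1%), and without control replicate 5 it was 34 of 50 (beside 50%). On day 1 the log2 fold change was above 0 in 40 of 50 (beside 49.2%), in 30 of 50 (beside 38.3%) without scaling and in 38 of 50 (beside 46%) after quantile normalization. The median over members was 0.060 on day 1 and 0.084 on day 5, beside -0.0029 and -0.0032 over all genes; without scaling the all-gene median moved to -0.047 and -0.037 and that of the members to 0.014 and 0.049. Without day 1 MN replicate 3 the day 1 median over members was 0.099. Both contrasts use the same control libraries, so these counts are not independent.

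**Figure D2:**
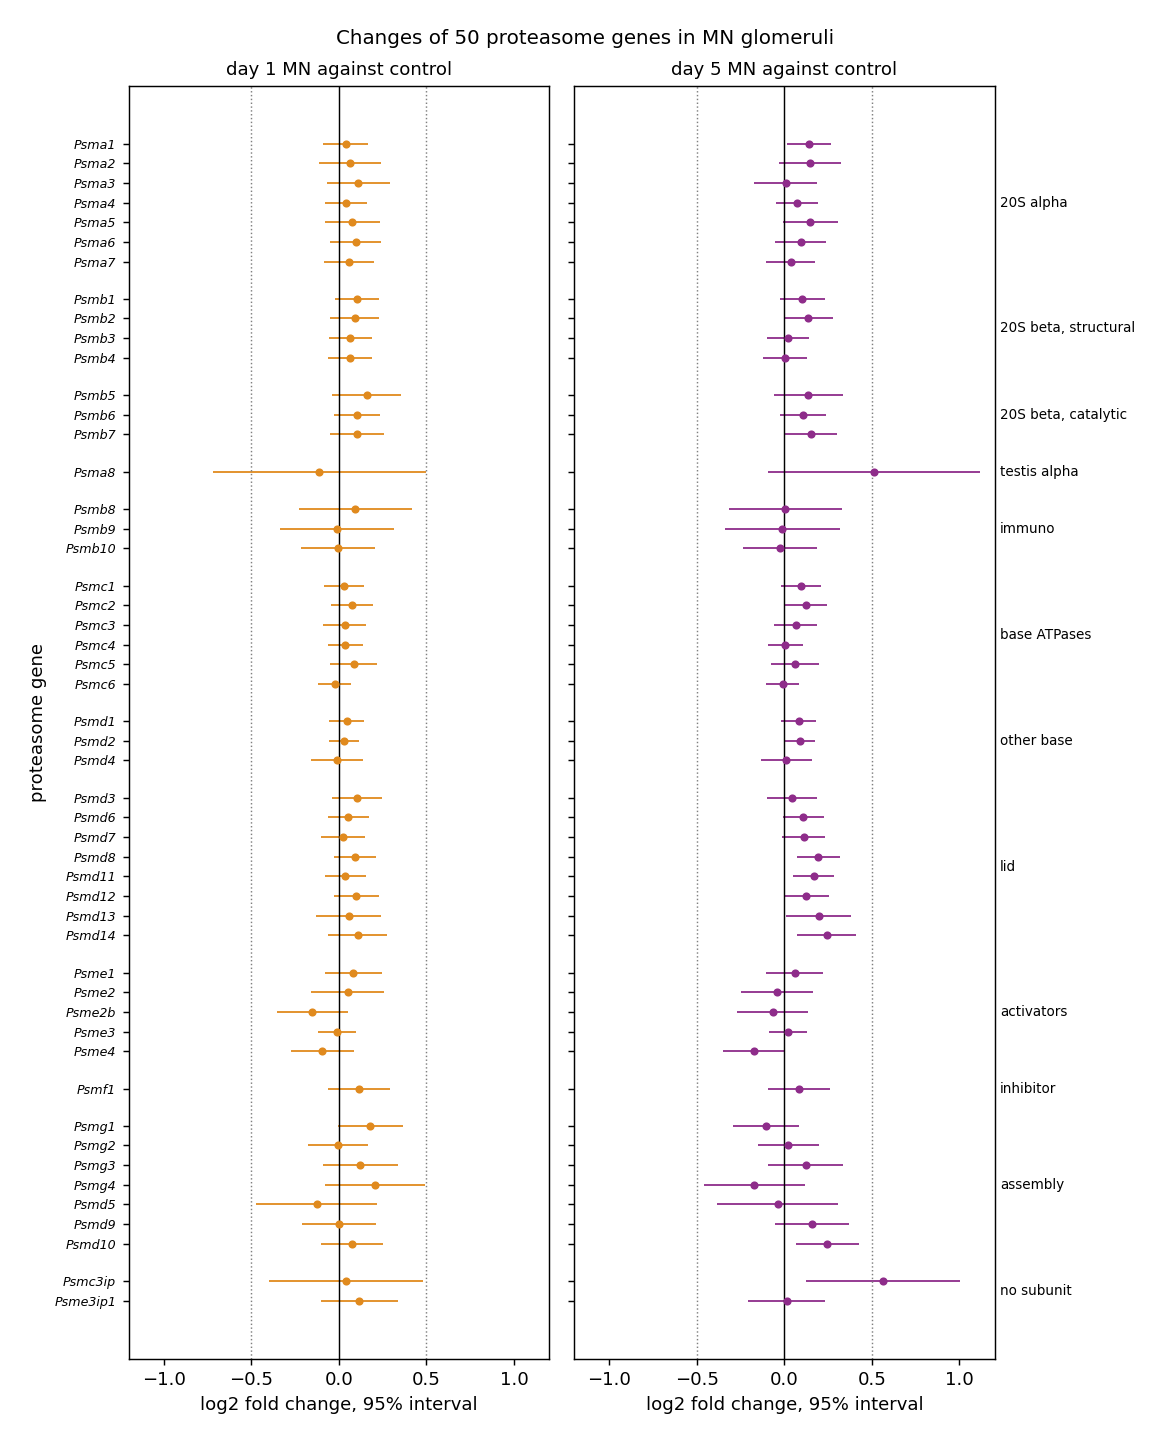
Log2 fold change of each of the 50 members against control on day 1 (left) and day 5 (right), with 95% intervals from limma and genes grouped by class; dotted lines mark 0.5 and -0.5. Intervals of all constitutive subunits stay between the dotted lines. The constitutive alpha, structural beta, catalytic beta and lid genes all lie right of 0 on both days.

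Among the 7 constitutive alpha subunits, which form the outer rings and the gate of the core, the median log2 fold change was 0.063 on day 1 and 0.095 on day 5. The day 1 median was 0.017 on TPM as deposited, 0.019 with the tubular marker level as a covariate and 0.12 without day 1 MN replicate 3, and the day 5 median was 0.046 after quantile normalization. Psma5 had the highest day 5 value (0.15, adjusted p = 0.28 in limma) and Psma3 the lowest (0.0071, adjusted p = 0.98). In control replicates 1 to 5, Psma5 was at 84.9, 70.2, 85.2, 75.0 and 73.0 TPM, in day 1 MN at 80.3, 79.1, 73.5 and 84.2 TPM, and in day 5 MN at 79.5, 88.8, 81.3 and 86.0 TPM. All groups of Psma5 overlapped, and all 4 day 5 libraries were above the control mean of 77.7 TPM. Psma1, at 157 ± 7.90 TPM in control and 168 ± 5.86 TPM (SD, n = 4) in day 5 MN, was the alpha gene with the lowest p (0.033 unadjusted, adjusted p = 0.20 in limma).

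The structural beta subunits Psmb1, Psmb2, Psmb3 and Psmb4 build the inner rings without cutting peptides. Their median was 0.078 on day 1 and 0.062 on day 5. Psmb2 was highest on day 5 (152 ± 13.9 TPM in control and 163 ± 10.7 TPM in day 5 MN, log2 fold change 0.14, adjusted p = 0.26 in limma) and Psmb4 lowest (211 ± 6.49 and 207 ± 10.7 TPM, 0.0036, adjusted p = 0.99). On TPM as deposited and after quantile normalization 2 of these 4 genes were above 0 on day 5.

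For the constitutive catalytic subunits and their immunoproteasome counterparts, the question was whether one set gave way to the other during the disease. Psmb5 carries the chymotrypsin-like, Psmb6 the caspase-like and Psmb7 the trypsin-like activity. In control, Psmb5 (chr14:54850776-54855481, minus strand, GRCm39) was at 89.3, 74.8, 94.1, 93.2 and 98.2 TPM, in day 1 MN at 104, 90.8, 90.5 and 103 TPM, and in day 5 MN at 102, 84.7, 99.1 and 99.5 TPM. Control replicate 2 was low and the groups overlapped. Its log2 fold change was 0.16 on day 1 (95% interval -0.039 to 0.36, adjusted p = 0.50 in limma) and 0.14 on day 5 (-0.061 to 0.33, adjusted p = 0.46).

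Psmb6 (chr11:70416183-70418684, plus strand) was at 284, 255, 286, 259 and 267 TPM in control, at 282, 283, 269 and 289 TPM in day 1 MN and at 302, 277, 276 and 279 TPM in day 5 MN. The groups overlapped, and day 5 MN replicate 1 was apart from the other 3. For Psmb7 (chr2:38478044-38534099, minus strand) control libraries were at 181, 154, 160, 173 and 178 TPM, day 1 MN at 182, 173, 164 and 184 TPM and day 5 MN at 186, 190, 180 and 175 TPM. Overlap remained between 175 and 181 TPM. Day 5 log2 fold changes were 0.10 for Psmb6 (adjusted p = 0.38 in limma) and 0.15 for Psmb7 (adjusted p = 0.26).

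Psmb8 (chr17:34416690-34420428, plus strand) and Psmb9 (chr17:34400960-34406738, minus strand) lie close together in the major histocompatibility complex, and Psmb10 (chr8:106662362-106665077, minus strand) lies apart (GRCm39). Psmb8 was at 62.6, 58.3, 49.1, 59.8 and 46.0 TPM in control, at 80.1, 61.4, 47.8 and 43.9 TPM in day 1 MN and at 48.8, 57.7, 54.1 and 54.3 TPM in day 5 MN. Day 1 MN held both the highest and the lowest of the 13 values. Psmb9 was at 28.1, 27.1, 27.7, 29.9 and 20.9 TPM in control, at 33.2, 25.8, 20.5 and 24.1 TPM in day 1 MN and at 21, 33, 27.5 and 22.9 TPM in day 5 MN. Psmb10 was at 121, 125, 104, 101 and 92.5 TPM in control, at 117, 110, 98.2 and 93.9 TPM in day 1 MN and at 101, 117, 104 and 93.4 TPM in day 5 MN. For none of the 3 genes were the groups separated on either day.

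Day 5 log2 fold changes of the immunoproteasome genes were 0.0046 for Psmb8, -0.012 for Psmb9 and -0.026 for Psmb10 (adjusted p between 0.92 and 0.99 in limma). The intervals were broader than those of the constitutive genes and ran from 0.79-fold to 1.25-fold at their widest. Their day 1 median of -0.0054 became 0.10 without day 1 MN replicate 3 and -0.051 on TPM as deposited. Leaving out 1 library at a time gave -0.071 to 0.10.

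**Figure D3:**
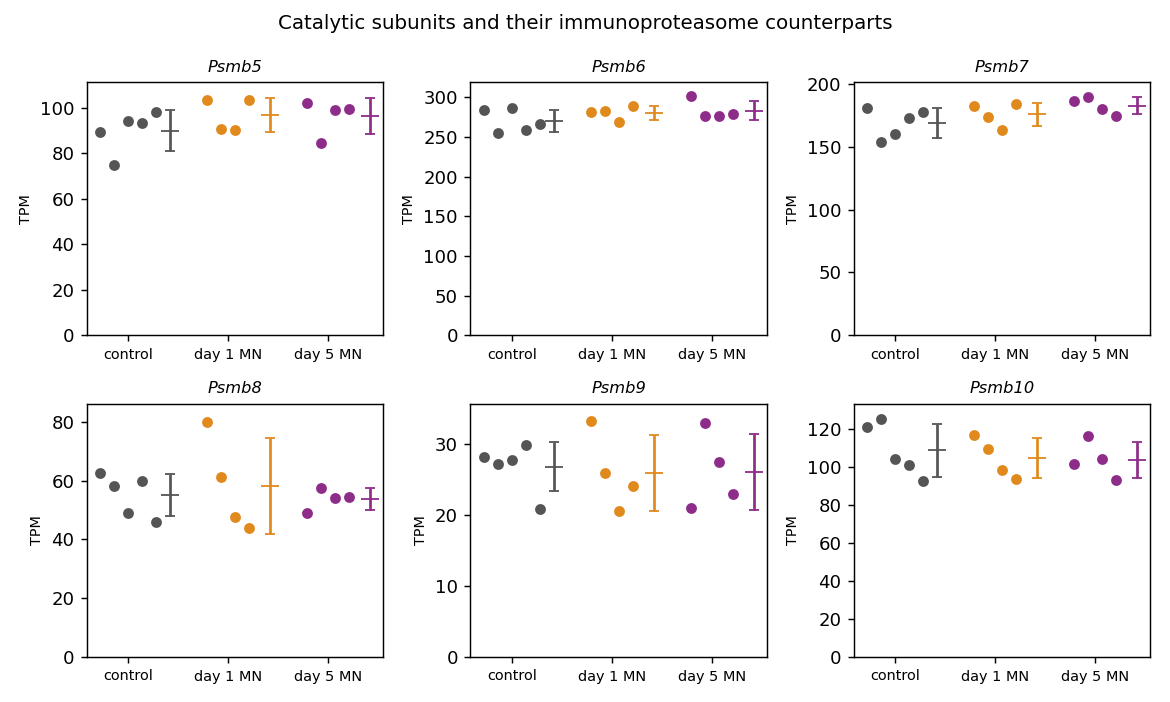
TPM of the constitutive catalytic genes (top) and their immunoproteasome counterparts (bottom) in every library, from replicate 1 on the left within each group; the bar beside each group is the mean and SD. Groups overlap in all 6 panels, and Psmb8 of day 1 MN spreads from 43.9 to 80.1 TPM.

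The ratio of each immunoproteasome gene to its constitutive partner, taken within a library, does not depend on scaling. In control the Psmb8 to Psmb5 ratio ran from 0.468 to 0.779, in day 1 MN from 0.425 to 0.772 and in day 5 MN from 0.478 to 0.681. The Psmb9 to Psmb6 ratio ran from 0.0783 to 0.115 in control, from 0.0763 to 0.118 in day 1 MN and from 0.0696 to 0.119 in day 5 MN. For Psmb10 to Psmb7 the ranges were 0.519 to 0.816, 0.511 to 0.643 and 0.535 to 0.614.

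The mean log2 ratio was below control in all 6 comparisons, by less than the spread among control libraries. The largest difference was that of Psmb10 to Psmb7 on day 5, -0.18 on the log2 scale with 0 of 4 MN libraries above the control mean (exact two-sided permutation test, p = 0.206, adjusted p = 0.705 over 6 tests). Leaving out 1 library gave -0.25 to -0.089 for this difference, the latter without control replicate 2. Exact permutation p-values of the other 5 comparisons lay between 0.429 and 0.762. With 5 against 4 libraries the smallest possible p was 0.0159. Without control replicate 2, which had the highest Psmb8 to Psmb5 ratio, that difference on day 1 changed from -0.064 to 0.023, and without day 1 MN replicate 4 it was 0.090. Leaving out day 5 MN replicate 1 turned the Psmb9 to Psmb6 difference on day 5 from -0.12 to 0.0099.

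Psma8, the testis-specific alpha subunit, was near the detection filter. It was at 0.413, 1.43, 0.368, 1.29 and 0.451 TPM in control, at 0.406, 0.783, 0.523 and 0.733 TPM in day 1 MN and at 1.38, 1.21, 1.13 and 1.09 TPM in day 5 MN. All 4 day 5 libraries were above all day 1 libraries, and control replicates 2 and 4 lay within or above the day 5 range. Its day 5 log2 fold change was 0.51 (95% interval -0.094 to 1.12, adjusted p = 0.34 in limma), and it passed the filter through control replicates 2 and 4 and the 4 day 5 libraries.

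The 6 ATPases of the 19S base, which unfold substrates and open the gate of the core, had a median log2 fold change of 0.035 on day 1 and 0.063 on day 5. On TPM as deposited the day 1 median was -0.011, and without day 1 MN replicate 3 it was 0.076. Psmc2 was highest on day 5 (111 ± 4.33 TPM in control and 118 ± 3.56 TPM in day 5 MN, 0.12, adjusted p = 0.23 in limma) and Psmc6 lowest (102 ± 3.23 and 98.9 ± 6.80 TPM, -0.0086, adjusted p = 0.95). The other base members are the scaffolds Psmd1 and Psmd2 and the ubiquitin receptor Psmd4. Psmd2 was highest of these on day 5 (126 ± 4.07 and 130.04 ± 0.840 TPM, 0.087, adjusted p = 0.25 in limma) and Psmd4 lowest (147 ± 10.9 and 145 ± 10.2 TPM, 0.011, adjusted p = 0.96).

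The lid and the catalytic beta genes had similar day 5 medians, 0.15 and 0.14. The 8 lid genes had a median log2 fold change of 0.15 on day 5 (0.11 on TPM as deposited, 0.14 after quantile normalization), and all 8 were above 0 under each of these scalings. On day 1 the lid median was 0.074, or 0.028 on TPM as deposited and 0.11 without day 1 MN replicate 3. Their summed level was 709 to 742 TPM in control, 697 to 759 TPM in day 1 MN and 755 to 794 TPM in day 5 MN. The day 5 range thus lay above the control range and overlapped that of day 1. For comparison, the summed 20S core was at 2283 to 2482 TPM in control and 2408 to 2477 TPM in day 5 MN, and the base at 1170 to 1272 and 1239 to 1281 TPM. Whether the lid differed from the other classes was not tested.

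Psmd14 (chr2:61542026-61631607, plus strand, GRCm39) encodes the deubiquitinase that releases ubiquitin chains from the substrate. It was at 61.7, 55.3, 57.3, 61.3 and 55.0 TPM in control, at 58.4, 58.2, 55.8 and 71.3 TPM in day 1 MN and at 66.4, 71.0, 63.0 and 68.4 TPM in day 5 MN. All day 5 libraries were above all control libraries, and day 1 MN replicate 4 was higher than any of them. The day 5 log2 fold change of 0.24 (95% interval 0.073 to 0.41, 1.18-fold) had an adjusted p of 0.092 in limma. Without day 1 MN replicate 4, which enters through the shared estimate of spread, the adjusted p was 0.043. This was the only 1 of 13 fits leaving out a library with a value under 0.05, and the highest was 0.24. Under 11 other settings the adjusted p in limma ran from 0.061 to 0.14.

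Psmd8 (chr7:28873612-28880135, minus strand), a structural lid subunit, had the lowest adjusted p of all members. Its libraries were at 141, 134, 131, 138 and 129 TPM in control, at 147, 142, 126 and 141 TPM in day 1 MN and at 149, 149, 159 and 144 TPM in day 5 MN. Every day 5 library was above every control library. The day 5 log2 fold change was 0.19 (95% interval 0.074 to 0.32, 1.14-fold, adjusted p = 0.059 in limma). The adjusted p was 0.018 without day 1 MN replicate 3 and 0.036 when only control and day 5 libraries were fitted, and it was 0.10 on TPM as deposited and 0.11 after quantile normalization.

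Psmd11, a lid scaffold subunit (chr11:80319400-80364074, plus strand), had the lowest coefficient of variation of the 31 constitutive subunits in control, 1.59%. It was at 64.4, 64.7, 65.5, 62.7 and 63.9 TPM in control, at 59.9, 68.1, 67.3 and 60.5 TPM in day 1 MN and at 71.3, 70.8, 70.9 and 68.8 TPM in day 5 MN. Day 5 lay above control and day 1 in every library, although it overlapped day 1 after scaling, and day 1 spread on both sides of control. Its day 5 log2 fold change was 0.17 (adjusted p = 0.092 in limma), and that between day 5 and day 1 was 0.13 (adjusted p = 0.29).

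Psmd13, Psmd6, Psmd7, Psmd12 and Psmd3 were the remaining lid members. Psmd13 was at 74.1, 64.1, 65.5, 73.0 and 80.3 TPM in control and at 74.3, 77.3, 92.5 and 75.7 TPM in day 5 MN, with replicate 3 apart (log2 fold change 0.20, adjusted p = 0.22 in limma). The groups of Psmd13 overlapped. Psmd6 was at 104 to 109 TPM in control and at 109.9 to 115 TPM in day 5 MN, so that its TPM ranges did not overlap, although they did after scaling (0.11, adjusted p = 0.29 in limma). Psmd3 had the lowest lid value on day 5 (0.044, adjusted p = 0.78 in limma).

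On TPM as deposited, day 5 MN lay wholly above control for 5 of 50 members, Psmd6, Psmd8, Psmd11, Psmd14 and Psmd10, beside 5.07% of all genes. After scaling 4 of 50 did so, Psmd8, Psmd11, Psmd14 and Psmd10, beside 6.38%. No member lay wholly below control on day 5 (5.71% of all genes did), and none was separated from control on day 1 (0.908% of all genes were separated on the higher side and 3.32% on the lower side). Separation of day 5 from day 1 (Psma8, Psmd11, Psmg1) describes those values only, since no share over all genes is given for that comparison.

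**Figure D4:**
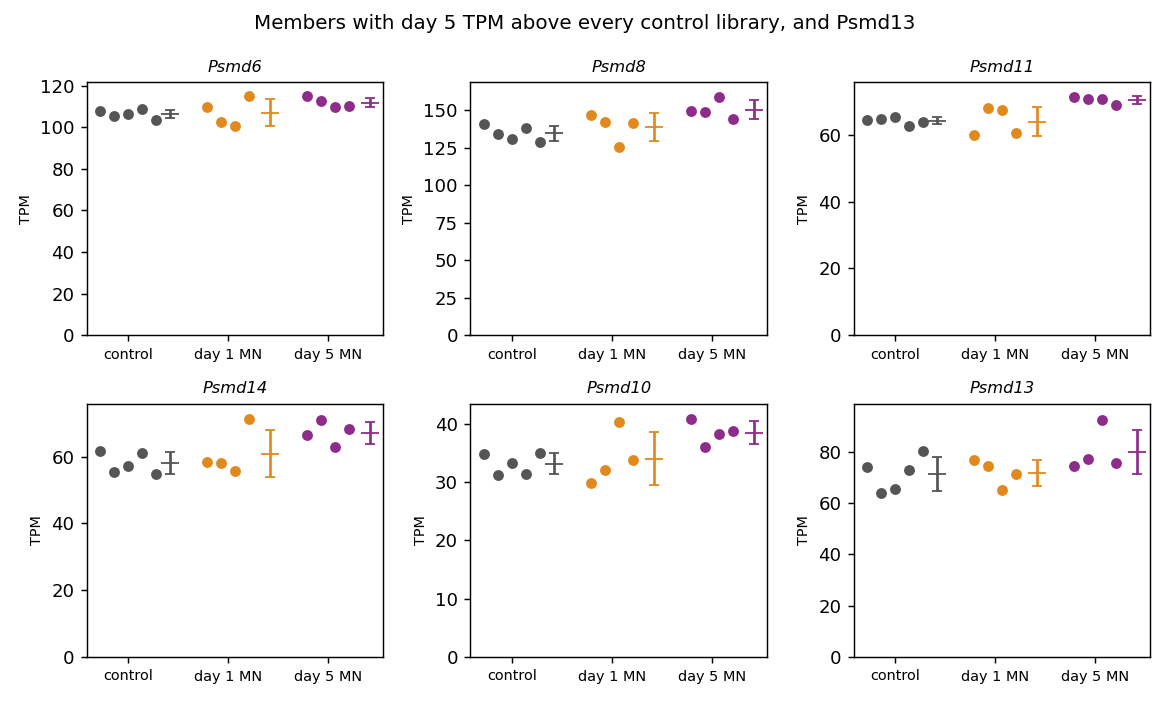
TPM in every library for the 5 members whose day 5 MN libraries all exceed all control libraries, and for Psmd13, whose groups overlap; the bar beside each group is the mean and SD. The Psmd11 panel shows day 5 at 68.8 to 71.3 TPM above control at 62.7 to 65.5 TPM.

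Among activators, Psme1 and Psme2 form the interferon-inducible PA28 ring, Psme3 the nuclear PA28 gamma ring and Psme4 the PA200 cap. Psme1 was at 158 ± 14.8 TPM in control, 162 ± 14.9 TPM in day 1 MN and 161 ± 9.37 TPM in day 5 MN (day 5 log2 fold change 0.059, adjusted p = 0.74 in limma). Psme2 was at 144 ± 16.6, 145 ± 14.8 and 137 ± 13.2 TPM (-0.043, adjusted p = 0.86). Psme2b, at 61.1 ± 10.1, 52.7 ± 2.80 and 56.2 ± 1.57 TPM (-0.068, adjusted p = 0.77 in limma), has a transcript 99.4% identical to that of Psme2, so how reads were split between these genes is uncertain.

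Psme4 and the assembly factor Psmg4 had the lowest day 5 values of all members, both -0.17. Psme4 was at 32.3, 30.3, 31.3, 31.4 and 34.0 TPM in control, at 28.6, 27.0, 27.9 and 32.2 TPM in day 1 MN and at 23.9, 24.6, 32.4 and 30.0 TPM in day 5 MN. Day 5 replicates 1, 2 and 4 were below all controls, replicate 4 by a small margin, while replicate 3 was within the control range. Its day 5 log2 fold change was -0.17 (95% interval -0.35 to 0.0055, adjusted p = 0.27 in limma). Psme3 (64.7 ± 2.77 TPM in control, 64.2 ± 4.13 TPM in day 5 MN, 0.022, adjusted p = 0.87) and the proteasome inhibitor Psmf1 (27.4 ± 2.05 and 28.3 ± 1.46 TPM, 0.084, adjusted p = 0.64 in limma) were close to control.

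Assembly factors act on the growing core and base. Psmg1 with Psmg2 and Psmg3 with Psmg4 chaperone the alpha ring, whereas Psmd5, Psmd9 and Psmd10 (gankyrin) chaperone the ATPase ring. The class median was 0.075 on day 1 and 0.023 on day 5 (-0.012 on TPM as deposited), with members on either side of 0. Psmd10 (chrX:139847687-139857477, minus strand) was at 34.9, 31.3, 33.3, 31.5 and 35.0 TPM in control, at 29.9, 32.2, 40.4 and 33.9 TPM in day 1 MN and at 40.8, 36.1, 38.4 and 38.8 TPM in day 5 MN. Day 5 lay wholly above control (log2 fold change 0.25, 95% interval 0.066 to 0.43, adjusted p = 0.11 in limma).

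Psmg1 and Psmg4 were higher than control on day 1 and lower on day 5, and neither passed. Psmg1 was at 21.7, 22.9, 18.7, 17.9 and 21.3 TPM in control, at 24.6, 19.6, 24.5 and 21.6 TPM in day 1 MN and at 17.1, 18.7, 19.5 and 18.7 TPM in day 5 MN. The lowest day 1 library thus exceeded the highest day 5 library by a small margin. Between day 5 and day 1 the log2 difference was -0.29 for Psmg1 (unadjusted p = 0.0079, adjusted p = 0.14 in limma) and -0.38 for Psmg4 (adjusted p = 0.20). Psmg4 was at 61.0 ± 5.50 TPM in control, 68.9 ± 12.3 TPM in day 1 MN and 53.4 ± 10.5 TPM in day 5 MN.

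Psmg2 and Psmg3, their partners, were close to control on day 5. Psmg2 was at 33.2 ± 3.20, 32 ± 2.41 and 33 ± 3.66 TPM (day 5 log2 fold change 0.023, adjusted p = 0.92 in limma) and Psmg3 at 30.3 ± 4.25, 31.8 ± 2.41 and 32.0 ± 2.09 TPM (0.12, adjusted p = 0.56). Day 5 values were 0.16 for Psmd9 (adjusted p = 0.41 in limma) and -0.038 for Psmd5 (adjusted p = 0.93).

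**Figure D5:**
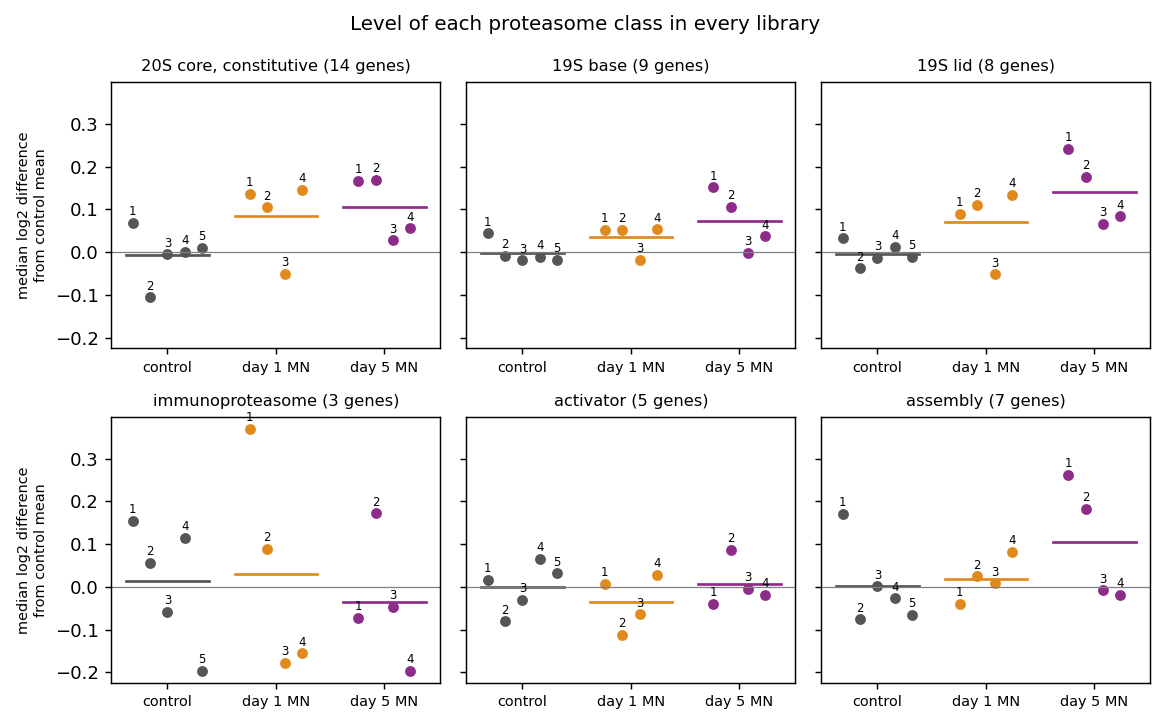
Median log2 difference from the control mean over the genes of each class, per library (number, replicate) after scaling; horizontal lines are group means of these medians. In the lid all 4 day 5 libraries lie above all controls, day 1 MN replicate 3 is the lowest day 1 library in the core, base and lid, and the immunoproteasome genes spread most among replicates.

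The remaining members encode no subunit. Psmc3ip, which acts with recombinases in meiosis, was at 7.43, 5.03, 6.12, 4.58 and 4.38 TPM in control, at 5.50, 7.44, 5.85 and 3.51 TPM in day 1 MN and at 5.75, 8.42, 9.30 and 9.28 TPM in day 5 MN. Of the 4 day 5 libraries 3 were above all controls, and its day 5 log2 fold change of 0.57 (95% interval 0.12 to 1.01, adjusted p = 0.13 in limma) was the highest among members. Psme3ip1 was at 38.8 ± 5.88 TPM in control and 38.1 ± 4.45 TPM in day 5 MN (0.013, adjusted p = 0.97). The 6 matched rows that failed the filter were Psmb11, the thymus-specific catalytic subunit, and the pseudogenes Psma5-ps, Psmb5-ps, Psmb6-ps, Psmb6-ps2 and Psmb7-ps2, with no value above 0.597 TPM.

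Genes that work with the proteasome were also examined. Of 11 measured partners, which include the ubiquitin receptor Adrm1, the deubiquitinases Usp14 and Uchl5 and the core maturation factor Pomp, 0 passed on either day in limma (1 on day 1 and 3 on day 5 at an unadjusted p under 0.05). Of these, Pomp was higher on day 5, at 185 ± 19 TPM in control and 216 ± 13 TPM in day 5 MN (log2 fold change 0.26, adjusted p = 0.077). Ecpas (-0.22, adjusted p = 0.18 in limma) and Zfand2a (-0.27, adjusted p = 0.24) were lower on day 5. The partner on day 1 was Ecpas, also lower (-0.23, adjusted p = 0.34 in limma). The member pattern leaves out subunits with other symbols, Adrm1 of the base and Sem1 of the lid. Their day 5 log2 fold changes were 0.12 (adjusted p = 0.38 in limma) and 0.12 (adjusted p = 0.27). Ubiquitin shuttle factors passed in 0 of 8 and ubiquitin precursor genes in 0 of 4 on either day (on day 5, 1 of each list at an unadjusted p under 0.05 in limma, Vcp and Rps27a). For 9 genes of interferon response and antigen processing, among them Tap1, B2m and Irf1, the count was 0 on each day, with 0 and 2 at an unadjusted p under 0.05 and medians of 0.073 and 0.12.

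In the list of NRF1 and its cofactors, 1 of 7 genes rose on day 1, and 1 rose and 2 fell on day 5. Maff, a small Maf protein that pairs with NRF1 and NRF2 on the ARE, rose from 6.27 ± 0.920 TPM in control to 16.8 ± 2.16 TPM on day 1 (log2 fold change 1.40, adjusted p = 0.0083 in limma) and 13.3 ± 3.93 TPM on day 5 (1.03, adjusted p = 0.0025). The other small Maf genes fell on day 5, Mafg from 92.3 ± 12.0 to 67.8 ± 5.90 TPM (-0.40, adjusted p = 0.037 in limma) and Mafk from 62.4 ± 3.99 to 49.1 ± 2.49 TPM (-0.31, adjusted p = 0.019). Nfe2l1 itself was at 462 ± 38.1 TPM in control and 397 ± 16.2 TPM in day 5 MN (-0.18, adjusted p = 0.21 in limma). The 6 members with an ARE match had day 5 log2 fold changes of 0.14 (Psmb5), 0.10 (Psmb6), 0.13 (Psmd12), 0.16 (Psmd9), -0.0086 (Psmc6) and -0.17 (Psme4), none of which passed.

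Markers of other cells and states moved in the same libraries. On day 1 the 8 tubular markers had log2 fold changes between 0.41 and 1.40, and 0 of 8 passed in limma (5 at an unadjusted p under 0.05). With the tubular marker level as a covariate the day 1 median of the catalytic beta genes went from 0.10 to -0.014. That of the immunoproteasome genes went from -0.0054 to 0.16, and the day 5 median of the lid stayed at 0.15. On day 5 the tubular markers had a median log2 fold change of -0.017, so the covariate had little group difference to remove there. On day 5 the podocyte genes Synpo (-0.46, adjusted p = 0.0020) and Cd2ap (-0.29, adjusted p = 0.012 in limma) fell, 2 of 10 podocyte markers, and the endothelial marker Emcn rose (0.29, adjusted p = 0.013), 1 of 8. At an unadjusted p under 0.05 in limma the day 5 counts were 4 podocyte and 4 endothelial markers. All endothelial markers lay above 0, from 0.027 to 0.29 with a median of 0.21. Podocyte markers ran from -0.46 to 0.33 with a median of -0.086. Mesangial markers (0 of 8) and leukocyte markers (0 of 7 tested) did not pass, with 0 and 3 on day 5 at an unadjusted p under 0.05. All 12 proliferation genes rose on day 5, by 1.06 to 2.99 on the log2 scale, and their summed level was 34.0 to 52.0 TPM in control and 176 to 258 TPM in day 5 MN. The part of these shifts in the lid values was not tested.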

How the data were processed

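Glomerular RNA-seq libraries (5 control, 4 day 1 MN, 4 day 5 MN) were analysed from the deposited table. Per the labels and the study's methods, the authors checked reads with FastQC 0.11.9, trimmed them with Trimmomatic 0.39 and quantified them with Kallisto 0.46.2 against Ensembl transcripts on GRCm39. The deposited values used here are TPM per gene, normalized by the authors for transcript length and library total; depth is therefore unknown, and no counting interval was computed. Authors' tests were not used.

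Libraries were scaled by a median-of-ratios factor each (0.955 to 1.04, from 15772 genes above 0 throughout), and log2(scaled TPM + 0.5) was tested with limma 3.58.1 (R 4.3.3; trend) in one fit of all 3 groups, over 14322 genes with at least 1 TPM in at least 4 libraries, with Benjamini-Hochberg adjustment and a threshold of 0.05. Ratios were tested by exact two-sided permutation. The study describes its replicates as independent animals, and the labels number the libraries within each group. Replicate numbers did not pair the libraries (0 of 12 correlations above 0.1).

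Members and gene lists were chosen with earlier results of these data known, and 1 further gene of interferon response is not reported here. Named genes were the catalytic, immunoproteasome, activator, inhibitor and assembly genes, members that are no subunit, and in each other class genes that passed plus the highest and lowest on day 5; Psma1, Psma2, Psma7, Psma8, Psmb3, Psmc3, Psmd6, Psmd8, Psmd11, Psmd12 and Psmd13 were added after their values were seen. Gene positions are from GENCODE on GRCm39, transcripts were compared with BLAST+ 2.17.0 and figures drawn with matplotlib 3.10.9. Alternatives varied the pseudocount, scaling, filter, variance trend, libraries fitted, replicate block, quality weights and a tubular covariate. In simulated data for day 5 against control over 14322 genes, 5, 23, 39 and 48 of 50 genes changed by 0.25, 0.5, 1 and 2 on the log2 scale were called, and 22 of 50 members when all were raised by 0.25. Noise was drawn gene by gene, without shifts shared by a library, and other genes were raised in the run of the members too. These counts are therefore not detection rates of the measured libraries.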

Additional observations from a re-analysis of the deposited data

Results flagged for a closer look

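Single libraries stood apart from the rest of their group in 11 of 150 groups examined (50 members in 3 groups), where chance gives about 1 in 20. Within control these were Psmc3 in replicate 5 (179.9 TPM, low), Psmc5 in replicate 1 (169.3 TPM, high) and Psmg4 in replicate 1 (70.6 TPM, high). In day 1 MN they were Psmb4 (201.6 TPM) and Psmc5 (149.6 TPM), both low in replicate 3, Psmd12 (58.8 TPM) and Psmd14 (71.3 TPM), both high in replicate 4, and, in replicate 1, Psme1 (184.6 TPM, high) and Psmg3 (28.2 TPM, low). In day 5 MN they were Psmb6 in replicate 1 (301.6 TPM) and Psmd13 in replicate 3 (92.5 TPM), both high.

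Psmg1 moved in opposite directions on the 2 days after scaling, above the control mean in 4 of 4 day 1 libraries and below it in 4 of 4 day 5 libraries. On TPM as deposited this did not hold, since day 1 MN replicate 2 was at 19.6 TPM and the control mean at 20.5 TPM. How many of all genes show such a pattern was not examined. The difference between day 5 and day 1 was -0.29 on the log2 scale and did not pass in limma (adjusted p = 0.14).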

How the results depend on the processing

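At day 5, 1 member passed in place of 0 when only the 2 compared groups were fitted (Psmd8); leaving out 1 library gave 0 to 1 (Psmd8 without day 1 MN replicate 3, Psmd14 without replicate 4). On TPM as deposited, day 1 class medians became 0.014 for all members, 0.033 for structural beta, -0.011 for ATPases, -0.017 for other base and 0.028 for lid genes, and day 5 medians 0.027 for structural beta, 0.028 for ATPases, 0.048 for other base and 0.11 for lid genes. Quantile normalization gave day 5 medians of 0.022 for structural beta, 0.021 for ATPases and 0.058 for other base genes. The tubular covariate gave day 1 medians of -0.014 for catalytic beta, 0.16 for immunoproteasome and 0.057 for other base genes. Leaving out 1 library gave day 1 ranges of 0.025 to 0.076 for ATPases and 0.058 to 0.11 for the lid, and day 5 ranges of 0.023 to 0.094 for ATPases, 0.060 to 0.11 for other base genes and 0.11 to 0.17 for the lid. The Psmb8 to Psmb5 difference on day 1 ranged from -0.20 to 0.090 and the Psmb9 to Psmb6 difference on day 5 from -0.25 to 0.0099. The cause of these shifts was not tested.

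With the replicate block 0 members passed in each contrast. Without day 1 MN replicate 3 all 10 class medians of day 1, all members included, lay between 0.0063 and 0.15. Over all genes the day 1 count of 19 became 185 with the block and 5 to 284 on leaving out 1 library, with 284 reached without control replicate 5; the day 5 count of 876 became 573 with the block. Other settings kept 0 members. The unknown depth and the 4 or 5 libraries per group limit what can be told apart at changes near 0.25.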

Other observations

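Position within the group differed between libraries across the 31 constitutive subunits. Control replicate 1 held the highest control TPM for 14 subunits, and control replicate 2 the lowest for 9. After scaling, control replicate 2 was lowest for 17, day 1 MN replicate 3 was lowest for 25 and day 5 MN replicate 1 was highest for 20. Control replicate 2 also had the lowest summed tubular marker level (400.27 TPM) of the 13 libraries.

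Transcripts of 6 members had at least 1 other gene alike in sequence (at least 90% identity over at least 50% of the length). For 4 of them, Psma5, Psmb3, Psmb6 and Psmd2, no such gene reached a mean of 1 TPM, and the other pair was Psme2 and Psme2b.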
